A study of Homo sapiens with 7 samples.

Results

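The core histone and H1 genes of the human histone clusters were examined in ChIP-seq data from Kasumi-1 cells. Members were the protein-coding genes on chromosomes 1 and 6 whose annotated symbol names a clustered histone gene, in the older style (HIST1H, HIST2H or HIST3H) or the newer one (H1- with a number, H2AC, H2BC, H3C or H4C). The GRCh37 annotation held 65 such genes among 20162 protein-coding genes, with 52 on chromosome 6 and 13 on chromosome 1. By class they comprised 6 H1, 17 H2A, 16 H2B, 13 H3 and 13 H4 genes. Symbols were taken as annotated, so a clustered histone gene without such a symbol there is not a member.

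Kasumi-1 is an established myeloblast line, grown from peripheral blood, that carries the t(8;21) translocation and makes the AML1-ETO fusion protein. Cells in log phase were used for every library, and the antibodies were directed against AML1 (RUNX1), ETO (for AML1-ETO), the co-repressor N-CoR, the co-activator p300 and H3K4me3, the trimethylated histone H3 found at active promoters. The C-terminal AML1 antibody does not recover the fusion protein, per the study. A single cell line was studied, without a control line or a knockdown among these libraries, and the replicates of each antibody were pooled into 1 list of summits. A summit is the position where the signal of a peak is highest. The list of AML1 comprised 11692 summits and that of AML1-ETO 18087. There were 10004 N-CoR summits, 11020 p300 summits and 19632 H3K4me3 summits. The lists hold no height, read count or score, so the depth behind a summit is unknown from them. The names inside 3 lists go against their labels: N-CoR summits are named as ETO peaks, and p300 and H3K4me3 summits as AML1 peaks. Each list is as long as the peak number that the study's library overview gives for the antibody on its label, and the lists are used as labelled. That number belongs to the middle of 3 p-value cutoffs in the overview, and the loosest gave more peaks for each of these antibodies. A promoter without a summit may thus still hold a weaker peak. The positions also differ between lists, since at most 1.03% of the shorter list of any pair lay at the same base (120 positions of AML1 and AML1-ETO, and 92 of AML1-ETO and N-CoR). Among markers, an H3K4me3 summit lay within 1 kb of the start of 5 of 8 myeloid genes (CD34, ELANE, CD33, SPI1 and CEBPE, and not KIT, MPO or PRTN3) and of 1 of 6 genes of other lineages (EPCAM). Both intervals (24.5 to 91.5% and 0.421 to 64.1%) held the 58.8% of all protein-coding genes, so these markers do not settle the cell type.

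Clustered histone genes are known to supply most of the histone protein that packages newly copied DNA. They are short, usually lack introns, are transcribed chiefly in S phase, and end their mRNA in a conserved stem-loop in place of a poly(A) tail. Many copies encode the same protein. H2A and H2B genes often lie head to head and share a promoter, and the promoters carry a TATA box, CCAAT boxes (bound by NF-Y) and, in H2A and H2B genes, an octamer bound by the POU factor OCT1.

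The promoter sequences of 5 genes and of 2 shared promoters are shown because the results turn on N-CoR summits that lie among these elements. All are GRCh37 sequences that end before the start of transcription, written 5′ to 3′, and capitals mark the TATA box letters TATAAA, the CCAAT box, the octamer ATTTGCAT and the H1 box letters AAACACA on either strand. The stretches between the starts of 2 head-to-head genes came from chr6:27114635-27114884 (plus strand), which held an N-CoR summit at its position 187 counted from 1 at the 5′ end, and from chr6:25726791-25727004 (plus strand), which held none.
H2BC12 to H2AC12: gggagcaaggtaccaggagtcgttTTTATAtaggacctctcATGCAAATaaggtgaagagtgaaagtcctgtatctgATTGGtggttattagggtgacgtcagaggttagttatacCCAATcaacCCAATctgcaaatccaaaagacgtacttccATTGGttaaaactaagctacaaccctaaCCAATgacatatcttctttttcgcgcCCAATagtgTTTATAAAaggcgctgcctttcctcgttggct
H2AC1 to H2BC1: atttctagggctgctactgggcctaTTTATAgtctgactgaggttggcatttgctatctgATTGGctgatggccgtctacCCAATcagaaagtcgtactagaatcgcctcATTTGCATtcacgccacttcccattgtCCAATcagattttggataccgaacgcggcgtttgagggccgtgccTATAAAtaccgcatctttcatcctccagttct

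For single genes, the 100 bases before the start are given. They came from chr6:27777729-27777828 (plus strand) for H3C10, chr6:26020579-26020678 (plus) for H3C1, chr6:26204738-26204837 (plus) for H4C5, chr6:26056699-26056798 (minus) for H1-2 and chr6:26018016-26018115 (minus) for H1-1. An N-CoR summit lay at position 64 of the H3C10 sequence, 39 of H4C5 and 68 of H1-2, and none lay in those of H3C1 and H1-1.
H3C10: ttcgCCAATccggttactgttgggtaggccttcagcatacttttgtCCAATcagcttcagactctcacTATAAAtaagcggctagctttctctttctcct
H3C1: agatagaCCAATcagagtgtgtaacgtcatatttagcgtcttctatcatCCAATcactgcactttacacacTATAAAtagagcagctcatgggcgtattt
H4C5: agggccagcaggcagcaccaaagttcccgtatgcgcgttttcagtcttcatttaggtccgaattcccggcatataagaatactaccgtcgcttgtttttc
H1-2: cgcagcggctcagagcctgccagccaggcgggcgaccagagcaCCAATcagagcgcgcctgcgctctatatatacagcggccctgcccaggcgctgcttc
H1-1: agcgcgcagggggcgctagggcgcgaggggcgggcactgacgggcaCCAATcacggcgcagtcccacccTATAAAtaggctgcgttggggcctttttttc

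N-CoR was the protein found most often at histone promoters. A promoter was counted as occupied when a summit lay within 1 kb of the start of transcription. N-CoR met this at 43 of 65 histone genes (66.2%, 95% interval 53.4 to 77.4%), against a background of 10.1% of all protein-coding genes. H3K4me3 was present at 50 (76.9%, 64.8 to 86.5%; background 58.8%) and p300 at 30 (46.2%, 33.7 to 59.0%; background 34.1%). AML1 and AML1-ETO were each present at 8 histone genes (12.3%, 5.47 to 22.8%), where the backgrounds were 14.8% and 18.4%. At 1 kb the interval lay above the background for N-CoR and H3K4me3 and held it for AML1, AML1-ETO and p300. In 8 of 11 alternatives all genes were counted the same way. The other 3 restricted the histone genes (to chromosome 6, to those outside the repeat or to those with the stem-loop) and were set against the background of the 1 kb count. Over the 11, the interval lay above the background in 11 for N-CoR and held it in 11 for AML1 and for AML1-ETO. For H3K4me3 it lay above in 8. It held the background within 500 bp (56.9%, 44 to 69.2%, against 51.4%) and within 250 bp (12.3%, 5.47 to 22.8%, against 22.4%), and it lay below in the first 50% of the list as deposited (12.3%, 5.47 to 22.8%, against 44.3%). For p300 it lay above in 7 of the 11, such as 56.9% (44 to 69.2%) against 35.4% within 2000 bp. It held the background in 4: with any annotated start (47.7%, 35.1 to 60.5%, against 37.0%), with each summit given to the nearest start only (41.5%, 29.4 to 54.4%, against 29.9%), in genes with the histone stem-loop (46.8%, 34 to 59.9%, against 34.1%) and in the first 50% of the list (21.5%, 12.3 to 33.5%, against 19.7%). Whether the p300 share stood above that of all genes thus depended on the setting, and 2 of the 7 were among those without a matched background. The intervals are exact Clopper-Pearson intervals for the counting of genes only. With pooled replicates no spread between libraries can be given, no test was made, and neighbouring genes that share a promoter are not independent.

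**Figure D1:**
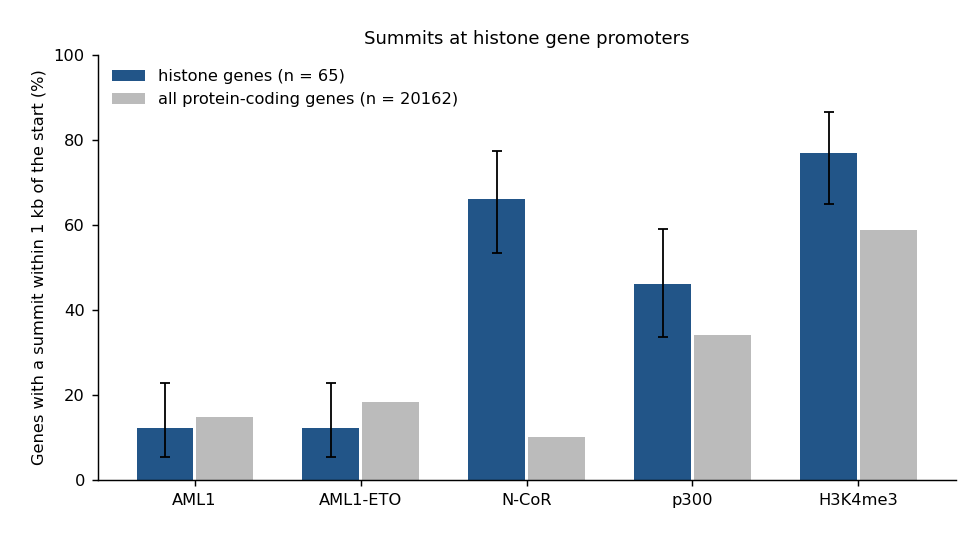
Share of genes with a summit within 1 kb of the start (vertical axis, %) for the 5 lists, in histone genes (blue, with exact 95% intervals) and in all protein-coding genes (grey). N-CoR stands at 66.2% of histone genes against 10.1% of all genes, while AML1 and AML1-ETO stand at 12.3%.

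By class, N-CoR was present at 13 of 17 H2A genes (76.5%, 50.1 to 93.2%), 13 of 16 H2B genes (81.2%, 54.4 to 96.0%), 9 of 13 H4 genes (69.2%, 38.6 to 90.9%), 6 of 13 H3 genes (46.2%, 19.2 to 74.9%) and 2 of 6 H1 genes (33.3%, 4.33 to 77.7%). These intervals overlap one another, so the order of the classes was not resolved. Outside a repeat on chromosome 1, where no protein had a summit at a histone gene, N-CoR was at 6 of 10 H3 genes (60%, 26.2 to 87.8%). H3K4me3 was present at 15 of 17 H2A genes (88.2%, 63.6 to 98.5%), 14 of 16 H2B genes (87.5%, 61.7 to 98.4%), 9 of 13 H4 genes (69.2%, 38.6 to 90.9%), 8 of 13 H3 genes (61.5%, 31.6 to 86.1%) and 4 of 6 H1 genes (66.7%, 22.3 to 95.7%). The intervals for H4, H3 and H1 held the 58.8% of all genes, and those for H2A and H2B lay above it.

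Most histone genes with N-CoR had no summit of AML1 or AML1-ETO in these lists, which leave out peaks below the cutoff of the study. Of the 43, 30 (69.8%, 53.9 to 82.8%) had no AML1 or AML1-ETO summit within 1 kb, compared with 466 of 2030 (23%) among all protein-coding genes with N-CoR. All 13 histone genes with AML1 or AML1-ETO also had N-CoR, as did 1564 of 4925 protein-coding genes with either (31.8%). p300 accompanied N-CoR at 26 of the 43 genes (60.5%, 44.4 to 75%), against 84.9% of all genes with N-CoR, and H3K4me3 at 41 (93.5% of all genes with N-CoR). The commonest combinations were N-CoR with H3K4me3 alone (15 genes, including H3C7 and H2AC16) and N-CoR with p300 and H3K4me3 (14 genes, including H1-2, H1-5, H2BC9 and H3C11). No summit of any list lay at 12 genes, and 6 had H3K4me3 alone. Among the 20162 protein-coding genes these 4 combinations were found at 76 (0.377%), 364 (1.81%), 7907 (39.2%) and 3883 (19.3%) in the same order. The copies with p300 and without N-CoR were H3C3, H1-4, H3C8 and H3C1.

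**Figure D2:**
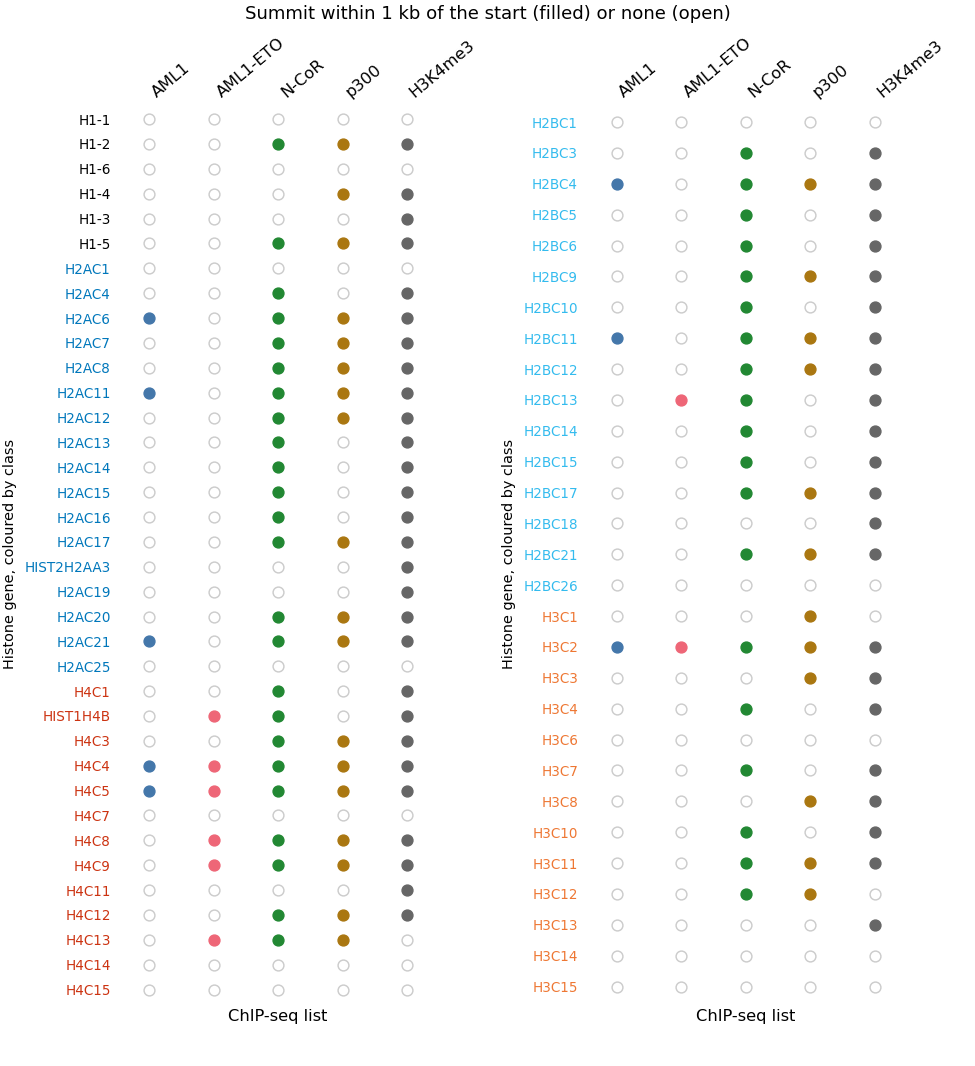
Each of the 65 histone genes (rows, coloured by class) against the 5 lists (columns), with a filled circle where a summit lay within 1 kb of the start and an open one where none did. The N-CoR and H3K4me3 columns are filled at 43 and 50 genes, and the AML1-ETO column is filled at 8, of which 6 are H4 genes.

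The N-CoR summits sat close to the start, almost all upstream of it. Because shared promoters place a summit near several genes, each of the 35 distinct N-CoR summits was measured once, from the nearest histone start. Their median position was -62 bp (middle 50% from -94.5 to -32.5 bp, where negative values are upstream), 33 of 35 were upstream, and 94.3% lay within 200 bp. At the promoters of other genes, 1825 N-CoR summits had a median of -81 bp, 79.2% were upstream and 64.5% lay within 200 bp. By gene, the 8 nearest summits lay at +1 bp (H1-5), -9 bp (H2BC9), -17 bp (H4C13), -18 bp (H3C2), -22 bp (H3C7), -29 bp (H2AC16 and H3C11) and -32 bp (H3C12). The other 35 genes had their nearest N-CoR summit between -526 bp (H2AC21) and +631 bp (H4C1), which were the members closest to the 1 kb limit from inside. Outside it, the closest were H3C8 at 1449 bp and H3C3 at 1543 bp.

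The other lists took different positions at the same promoters. The 29 p300 summits had a median of +48 bp, just downstream of the start, with 21 of 29 downstream, against a median of -10 bp at other genes. The 53 H3K4me3 summits lay further into the gene, at a median of +340 bp with 42 of 53 downstream (other genes +232 bp). AML1-ETO, with 9 summits, had a median of +18 bp (other genes -52.5 bp), and AML1, with 7, a median of -17 bp (other genes -86 bp). Upstream of the start lay 2 of 9 AML1-ETO summits (other genes 64.7%) and 4 of 7 AML1 summits (other genes 77.9%). Near the limit, H2BC5 was counted as having H3K4me3 through a summit at 991 bp, while H3C6 and H3C1 missed it with summits at 1325 and 1373 bp. H2AC6 entered the AML1 group at 996 bp and H2BC13 the AML1-ETO group at 883 bp. The nearest genes outside these groups were H2AC4 at 1542 bp from AML1 and H2AC13 at 1127 bp from AML1-ETO. For p300 the members closest to the limit from inside were H2AC21 at 624 bp and H2BC4 at 348 bp, and H3C7 at 1027 bp and H4C1 at 1149 bp were the closest outside it.

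**Figure D3:**
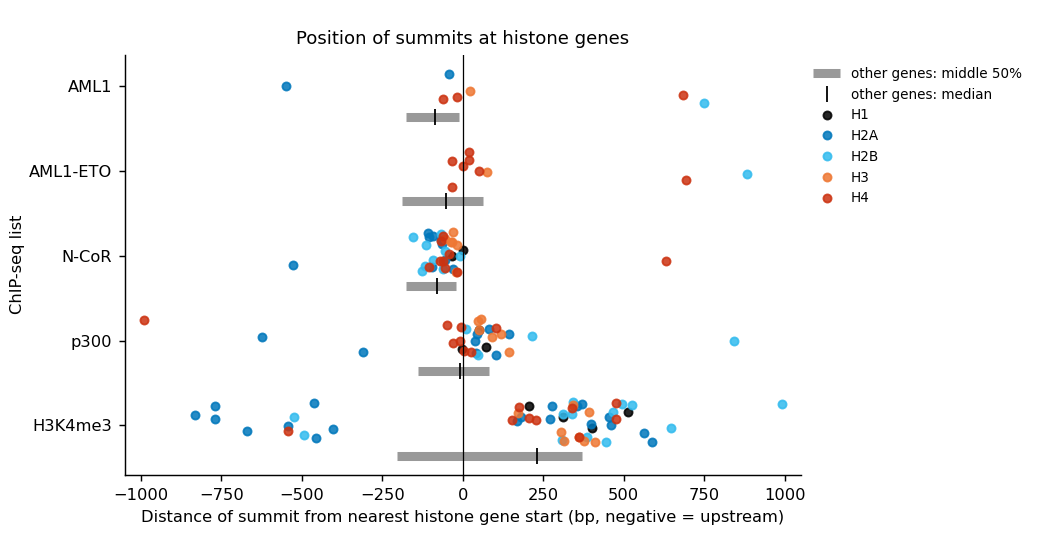
Distance of each summit from the nearest histone gene start (horizontal axis, bp, negative upstream) for the 5 lists, with points coloured by histone class. Grey bars and ticks give the middle 50% and median at the promoters of other genes. N-CoR points gather just upstream of the start, p300 points around and just past it, and H3K4me3 points mostly downstream, around +340 bp.

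Head-to-head gene pairs also showed this order of summits. In 11 pairs the starts lay 1 kb or less apart, 10 of them an H2A with an H2B gene (194 to 251 bp apart, median 242 bp) and 1 an H3 with an H2B gene (H3C7 and H2BC9, 979 bp apart). N-CoR summits lay between the starts in 9 of the 11 pairs, and all 10 N-CoR summits at pairs were between them. None of the 8 p300 summits and none of the 16 H3K4me3 summits at pairs lay between the starts. H3K4me3 summits flanked both sides in 7 of the 9 pairs that had any. In the 8 H2A and H2B pairs with N-CoR, its summit lay a median of 19.75 bp and at most 69 bp from the midpoint of the gap, nearer the H2B start in 4 pairs and the H2A start in 4. In the printed H2BC12 and H2AC12 promoter, for instance, N-CoR lay 187 bp upstream of H2BC12 and 64 bp upstream of H2AC12, p300 lay 40 bp into H2AC12, and H3K4me3 summits lay 494 bp into H2BC12 and 270 bp into H2AC12. The wider H3C7 and H2BC9 gap had a separate N-CoR summit beside each start, at -22 and -9 bp.

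**Figure D4:**
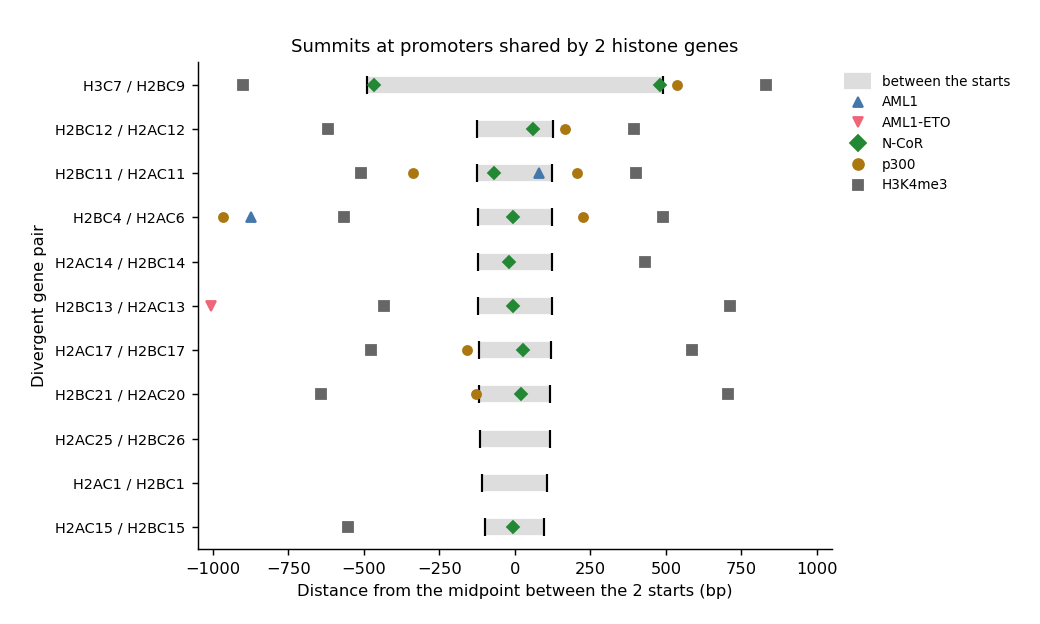
Summits of the 5 lists at the 11 head-to-head histone gene pairs, placed by distance from the midpoint between the starts (horizontal axis, bp), with grey bars spanning the gap and black ticks at the starts. Green N-CoR diamonds lie inside the gap in 9 pairs, while p300 circles and H3K4me3 squares lie outside it.

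The pairs without N-CoR were H2AC25 with H2BC26 on chromosome 1 and H2AC1 with H2BC1 on chromosome 6. H2AC1 and H2BC1 are known as testis histone genes. Neither pair had a summit of any list within 1 kb of a start, and the nearest H3K4me3 summit lay 28665 bp from H2BC26 and 236319 bp from H2BC1. The printed H2AC1 to H2BC1 sequence held 3 CCAAT, 2 TATAAA and 1 ATTTGCAT match, and that of H2BC12 to H2AC12 held 6, 3 and 1. Counting shared promoters once gave 54 promoters, of which 43 served a single member. Partners that are not in the member list were not counted. N-CoR was present at 25 of these 43, p300 at 19 and H3K4me3 at 32, where over all promoters counted in this way the shares were 9.66%, 32.2% and 57.2%.

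The AML1-ETO share of histone genes (12.3%, 5.47 to 22.8%) held the share of all genes (18.4%) in its interval, as it did in 11 of 11 alternatives. Among the 50 histone genes with H3K4me3, AML1-ETO was at 7 (14.0%, 5.82 to 26.7%). At 1 kb this interval lay below the 28.8% of all genes with H3K4me3. Of the 8 histone genes with AML1-ETO, 6 were H4, 1 was H3 (H3C2) and 1 was H2B (H2BC13, at 883 bp). The H4 share was 6 of 13 (46.2%, 19.2 to 74.9%), where 18.4% of all genes had a summit. In the first 50% of the list as deposited AML1-ETO was at 1 of 65 histone genes (1.54%, against 7.55% of all genes), which was H4C4, so this distribution rests on the second part of the list. At HIST1H4B, AML1-ETO lay at +2 bp and N-CoR at -67 bp, with no AML1 or p300. H4C8 had AML1-ETO at +18 bp, N-CoR at -60 bp and p300 at +3 bp. H4C9 had AML1-ETO at -32 bp, N-CoR at -71 bp and p300 at -29 bp. Both lacked AML1.

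All 5 lists met at H4C4, H4C5 and H3C2. At H4C4 (chromosome 6, 26188938 to 26189340, minus strand) the summits lay at -48 bp (p300), -44 bp (N-CoR), -17 bp (AML1) and +49 bp (AML1-ETO), with H3K4me3 at +340 bp. At H4C5 (26204838 to 26205249, plus strand) N-CoR lay at -62 bp, AML1 at -61 bp, p300 at -9 bp and AML1-ETO at +18 bp, and a further AML1 and AML1-ETO summit lay at 685 and 692 bp. At H3C2 (26031817 to 26032327, minus strand) N-CoR lay at -18 bp, AML1 at +23 bp, AML1-ETO at +74 bp and p300 at +92 bp. The remaining 5 genes with AML1 had it without AML1-ETO, and all were H2A or H2B genes: H2AC21 (-549 bp), the pair H2BC4 and H2AC6 (1 summit, 750 bp into H2BC4) and the pair H2BC11 and H2AC11 (1 summit, -205 and -43 bp). AML1 and AML1-ETO thus shared 3 of the 8 genes of each, while 1754 protein-coding genes had both, 58.9% of those with AML1 and 47.4% of those with AML1-ETO. With 8 genes each, the histone genes could not be set apart from these shares.

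The H1 genes, which encode linker histones, differed from copy to copy. H1-2 had N-CoR at -33 bp, p300 at +51 bp and H3K4me3 at +206 bp, and H1-5 had them at +1, +71 and +401 bp. H1-4 had p300 at -1 bp and H3K4me3 at +312 bp without N-CoR. H1-3 had H3K4me3 alone, at +512 bp. H1-1 and H1-6 had no summit of any list, and H1-6 is known as the testis H1 gene. No H1 gene had AML1 or AML1-ETO.

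RNA was not measured here, so copies were divided by H3K4me3 into 50 marked genes, with a summit within 1 kb, and 15 unmarked genes. N-CoR was present at 41 of the 50 marked genes (82.0%, 68.6 to 91.4%), where the background among all genes with H3K4me3 was 16%. It was present at 2 of the 15 unmarked genes (13.3%, 1.66 to 40.5%), where the background without H3K4me3 was 1.59%. p300 was present at 27 marked genes (54.0%, 39.3 to 68.2%; background 56.8%) and 3 unmarked ones (20.0%, 4.33 to 48.1%; background 1.65%). AML1 was present at 8 marked genes (16%, 7.17 to 29.1%; background 23.7%) and at 0 of 15 unmarked ones, which allows a share of up to 21.8% (background 2.02%). AML1-ETO was present at 7 marked genes (14.0%, 5.82 to 26.7%; background 28.8%) and 1 unmarked gene (6.67%; background 3.43%). At 1 kb the intervals for N-CoR in marked and unmarked copies did not overlap, and those for the other proteins did. This rests on the window and the list. Within 250 bp only 8 copies count as marked, N-CoR was then present at 61.4% of the unmarked copies (47.6 to 74.0%), and its intervals overlapped. They also overlapped in the first 50% of the lists (34.9 to 96.8% for marked and 32.4 to 59.3% for unmarked copies). Within 2000 bp the p300 intervals did not overlap either (53.7 to 80.1% and 0.211 to 38.5%).

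The 15 unmarked copies were not alike. H4C14, H3C14, H3C15 and H4C15 lie in an inverted repeat of chromosome 1, where every 32-base word of the 1 kb windows occurs more than once in the genome. H2AC25, H2BC26, H2AC1, H2BC1, H1-1, H1-6, H3C6 and H4C7 had no summit of any list either. H3C1 had p300 at +49 bp and no other summit. The copies with N-CoR were H3C12 (-32 bp, with p300 at +145 bp) and H4C13 (-17 bp, with p300 at +102 bp and AML1-ETO at -34 bp). Their nearest H3K4me3 summits lay at -2003 and +1494 bp, so H4C13 would count as marked within 2000 bp and H3C12 would not. The nearest H3K4me3 summit to H3C1 lay at +1373 bp, at the adjacent marked copy H4C1. The same summit was the nearest to H1-1, at -4037 bp, with the unmarked H3C1 between them.

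The 65 genes encode 35 distinct proteins in the reference, and 3 of these, 2 of H3 and 1 of H4, are encoded by both marked and unmarked copies. Of the 15 unmarked genes, 8 encode a protein that a marked copy also encodes and 7 do not. The 8 include H4C14, H4C15, H3C14 and H3C15, which lie in the chromosome 1 repeat. H3C13, the marked copy with the same protein as H3C14 and H3C15, lies there too. Short reads may not be placed uniquely in the repeat, and the part of this was not tested. No H1, H2A or H2B protein was shared between marked and unmarked copies. Among the H4 genes, 12 encode 1 protein of 103 amino acids, of which 9 copies were marked and 3 unmarked, and 9 had N-CoR. H4C7, which encodes a shorter H4 protein of 98 amino acids, was unmarked. Among the H3 genes, 10 encode 1 protein, with 7 copies marked and 3 unmarked (H3C1, H3C6 and H3C12), and the other 3 (H3C13, H3C14 and H3C15) encode another, with 1 copy marked. H3C10, with N-CoR at -37 bp, and H3C1, without it, thus encode the same protein, and their printed promoters each held 2 CCAAT and 1 TATAAA match. Among H2A genes, the largest set with 1 protein was H2AC11, H2AC13, H2AC15, H2AC16 and H2AC17, and all 5 had H3K4me3 and N-CoR.

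The stem-loop that ends histone mRNA was sought as a fixed pattern with alternative letters at some positions. It was found after the stop codon of 62 of 65 genes, in 7 distinct forms, between 26 and 71 bp past it. The pattern was not found in H3C6, H4C13 and H2BC10, of which H2BC10 was marked. Whether these genes hold a looser match was not tested. The commonest form and the form of most H4 genes are printed as DNA with the paired stem in capitals.
Commonest form (39 genes, 31 marked): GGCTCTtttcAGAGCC
H4 form (8 genes, all H4, 7 marked): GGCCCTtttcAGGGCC
With the first form 8 genes were unmarked, so copies with and without H3K4me3 shared the same element.

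Promoter elements were counted from 250 bp before to 50 bp after the start, on either strand. TATAAA was present in 66.2% of histone genes (53.4 to 77.4%) against 9.80% of all protein-coding genes, CCAAT in 84.6% (73.5 to 92.4%) against 35.9%, and the octamer ATTTGCAT in 36.9% (25.3 to 49.8%) against 1.58%. The octamer was present in 12 of 17 H2A and 12 of 16 H2B genes and in no H1, H3 or H4 gene. CCAAT was present in every H1, H2B and H3 gene and in 16 of 17 H2A genes, but in 4 of 13 H4 genes. The H1 box AAACACA was present in all 6 H1 genes and in 9 of 65 histone genes, against 4.21% of all genes. These shares depended on the window: in the 100 bases before the start AAACACA was at 0% of histone genes (1.10% of all genes) and the octamer at 12.3% (0.665%). The Runx motif TGTGGT was present in 12.3% of histone genes and 10.8% of all genes, and in the 100 bases before the start in 1.54% and 3.48%. The ETS motif AGGAAG was present in 16.9% (8.76 to 28.3%) against 32.6%, and the PU.1 motif GAGGAA in 32.3% against 27.2%. The E2F motif TTTGGCGC was present in 0 of 65 (up to 5.52%) and 0.853% of all genes. AGGAAG and GAGGAA share bases and can overlap.

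The shares of promoter elements in marked and unmarked copies rest on 50 and 15 genes. CCAAT was present in 86.0% of marked (73.3 to 94.2%) and 80.0% of unmarked copies (51.9 to 95.7%), and TATAAA in 68.0% (53.3 to 80.5%) and 60.0% (32.3 to 83.7%). The octamer was present in 44% of marked (30.0 to 58.7%) and 13.3% of unmarked copies (1.66 to 40.5%), and CCGGAA, another ETS motif, in 10.0% (3.33 to 21.8%) and 33.3% (11.8 to 61.6%). AAACACA was present in 10.0% (3.33 to 21.8%) and 26.7% (7.79 to 55.1%), TGTGGT in 10.0% (3.33 to 21.8%) and 20.0% (4.33 to 48.1%), AGGAAG in 20.0% (10.0 to 33.7%) and 6.67% (0.169 to 31.9%), and GAGGAA in 32% (19.5 to 46.7%) and 33.3% (11.8 to 61.6%). TTTGGCGC was in neither. All of these intervals overlap, so with 15 unmarked genes the shares could be called neither different nor alike. Of the unmarked genes, 11 lie outside the chromosome 1 repeat. Among these, CCAAT was in 90.9%, TATAAA in 63.6%, the octamer in 18.2% and CCGGAA in 27.3%. AAACACA was in 18.2%, TGTGGT in 27.3%, and AGGAAG and GAGGAA in 9.09% each. Their intervals also overlapped those of the marked genes. As a match is only a run of letters, it does not show that a factor is bound.

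The sequence under N-CoR at histone promoters was rich in CCAAT. Within 50 bp of the summit, CCAAT was present at 25 of 35 N-CoR summits at histone genes (71.4%, 53.7 to 85.4%), 9.42% of 1825 N-CoR summits at the starts of other genes and 8.29% of 8143 away from starts. The corresponding shares were 34.3%, 1.53% and 4.36% for TATAAA, and 20.0%, 0.164% and 0.209% for the octamer. For AGGAAG they were 0 of 35 (up to 10.0%), 26.7% and 51%, and for CCGGAA 5.71% (0.700 to 19.2%), 24.4% and 6.84%. GAGGAA was at 4 of 35 (11.4%, 3.20 to 26.7%), 18.3% and 33.9%, so its interval held the share at other starts. TTTGGCGC and AAACACA were at 0 of 35, against 0.603% and 1.86% at other starts. TGTGGT was found at 3 of 35 (8.57%), 6.90% and 22.5%. At the histone summits with a CCAAT match within 150 bp (29 of 35), the match lay a median of 19 bp from the N-CoR summit. Histone promoters are rich in CCAAT in any case, and the part of this in the share under N-CoR was not tested. CCAAT lay within 50 bp of 1 of 29 p300 summits at histone genes (3.45%, 0.0873 to 17.8%), against 7.26% at other starts. It lay as close to 2 of 7 AML1 summits (3.67 to 71.0%) and 2 of 9 AML1-ETO summits (2.81 to 60.0%), against 16.9% and 8.58%. Each of these intervals held the share of the same list at other starts. In the printed H3C10 sequence the N-CoR summit at position 64 fell between the CCAAT match at 47 and the TATAAA match at 69. In H1-2 the CCAAT match was at 44 and the summit at 68. H4C5 had N-CoR with no capital letter in the printed 100 bases.

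Summits of AML1-ETO and AML1 lay beside N-CoR at a lower share of sites at histone genes than at other starts or away from starts, and those of p300 at a lower share than at other starts. The 100 bp window around an AML1-ETO summit overlapped that of N-CoR at 7 of 35 histone N-CoR summits (20.0%, 8.44 to 36.9%), against 54.0% at other starts and 74.2% away from starts. For AML1 these shares were 11.4% (3.20 to 26.7%), 46.1% and 57.1%. For p300 they were 34.3% (19.1 to 52.2%), 54.5% and 33.6%. At histone genes, TGTGGT lay within 50 bp of 3 of 7 AML1 summits and 2 of 9 AML1-ETO summits, against 15.1% and 11.7% at the starts of other genes, numbers too small to set apart.

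Starts of neighbouring members lay less than 200 kb apart within 6 groups, of which 4 held N-CoR summits. The other 2, the pairs H2AC25 with H2BC26 and H2AC1 with H2BC1, held no summit of any list. In the group of 29 genes on chromosome 6 (26017015 to 26286762), 20 genes had N-CoR and there were 20 summits, or 74.1 per Mb, where the genome had 3.23 per Mb. The other lists were dense there too, with 66.7 p300 summits per Mb (genome 3.56), 122 of H3K4me3 (6.34), and 26 each of AML1 (3.78) and AML1-ETO (5.84). In the group of 16 genes (27774707 to 27862203) 15 genes had N-CoR, H4C11 being the exception, at 126 summits per Mb. All 5 genes of the group at 27099574 to 27115885 had it. Over all groups, 1 N-CoR summit lay more than 1 kb from the start of any of the 65 members. Whether it lay at a histone gene that the member list does not hold was not tested. The density of genes differs as well, so these figures describe the loci and not single promoters.

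**Figure D5:**
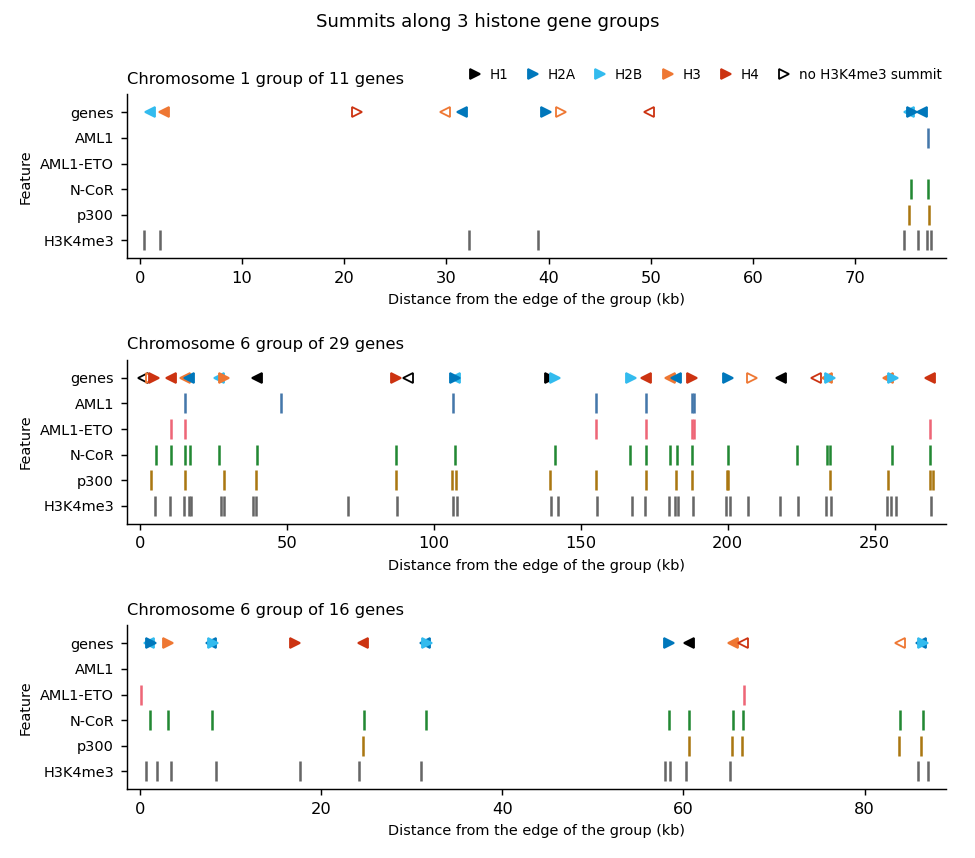
Histone genes (arrowheads, coloured by class, open where no H3K4me3 summit lay within 1 kb) and summits of the 5 lists (ticks) along 3 groups of histone genes, by distance from the edge of the group (horizontal axis, kb). N-CoR ticks stand at the genes of both chromosome 6 groups, and in the chromosome 1 group only at its right end.

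The chromosome 1 group carried N-CoR at 3 of 11 genes, the pair H2BC21 and H2AC20 (1 summit, -139 and -97 bp) and H2AC21. The other 8 genes (H2BC18, H3C13, H4C14, H3C14, HIST2H2AA3, H2AC19, H3C15 and H4C15) lie in the repeat, where 76.6 to 100% of 32-base words occur elsewhere in the genome, compared with at most 31.7% (median 7.16%) for the remaining histone genes. None of the 8 had a summit of AML1, AML1-ETO, N-CoR or p300, and 4 had H3K4me3. Short reads from repeated sequence cannot be placed uniquely, and the part of this in these values was not tested. Outside the repeat N-CoR was present at 43 of 57 histone genes (75.4%, 62.2 to 85.9%).

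Genes of other kinds within the chromosome 6 histone region had N-CoR at a lower share than the histone genes there. Of 20 such protein-coding genes, 4 had an N-CoR summit (20.0%, 5.73 to 43.7%), of which 1 shares its start with H2AC7. The interval held the 10.1% of all protein-coding genes, as it did without that gene (3 of 19, 15.8%, 3.38 to 39.6%). The other 3 were BTN3A2 and BTN3A1, of the butyrophilin family, and ABT1, and 14 of the 20 had H3K4me3 (70%, 45.7 to 88.1%; background 58.8%). The interval for these genes lay below that for histone genes on chromosome 6 (40 of 52, 76.9%, 63.2 to 87.5%). HFE, the hemochromatosis gene, lies between histone genes of the largest group and had H3K4me3 and none of the 4 proteins.

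Genes related to histones elsewhere in the genome were also examined, comprising 11 regulators of histone transcription, 10 genes of histone RNA processing, 17 histone chaperones and 13 histone genes outside the clusters. Of these 51 genes, 3 had N-CoR (5.88%, 1.23 to 16.2%; background 10.1%), 48 had H3K4me3 (94.1%, 83.8 to 98.8%; background 58.8%) and 34 had p300 (66.7%, 52.1 to 79.2%; background 34.1%). As most carried H3K4me3, the closer background is that of genes with the mark: of the 48 with it, p300 was at 34 (70.8%, 55.9 to 83.0%; background 56.8%) and N-CoR at 3 (6.25%, 1.31 to 17.2%; background 16%), and both intervals held the background. The 3 were SLBP, which binds the stem-loop (N-CoR at -386 bp), HIRA, a chaperone for the replacement histone H3.3 (-758 bp), and H3-3B, which encodes that histone (+375 bp). All 3 also had AML1-ETO, at -384, -585 and +677 bp, where 65.2% of all genes with N-CoR had it. Over the 51 genes AML1-ETO was at 12 (23.5%, 12.8 to 37.5%; background 18.4%) and AML1 at 9 (17.6%, 8.40 to 30.9%; background 14.8%), and both intervals held the background. N-CoR was at 0 of 11 regulators of histone transcription, which allows a share of up to 28.5%, so the number is too small to set against 10.1%. AML1 was present at 3 of the 11 regulators (27.3%, 6.02 to 61%), an interval that holds the 14.8% of all genes. They were NPAT, the co-activator of histone genes (+85 bp), HINFP, which binds H4 promoters (-238 bp), and CASP8AP2, a partner of NPAT (-166 bp). Of 13 histone genes outside the clusters, 11 had H3K4me3, 8 had p300 and 1 had N-CoR (7.69%, 0.195 to 36%).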

How the data were processed

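ChIP-seq of Kasumi-1 cells was analysed from the deposited summit positions. The authors processed reads with CASAVA 1.6, aligned them to hg19 (GRCh37) with Bowtie 0.12.8, combined the replicates of an antibody and ran MACS2 2.0.10.20131216, per the labels and the study's methods. The deposited lists hold 100 bp windows in BED format and names, with no score, and a summit was taken 50 bp into each window. The order of the lists follows neither position nor a stated measure. Summits were assigned to starts of the canonical transcripts of GENCODE release 44 lifted to GRCh37, or to the gene end where none was marked (281 genes, 2 of them histone genes). Every summit lay inside a GRCh37 chromosome. The members, gene lists and named genes were chosen with earlier results of these data known. The genes named were all unmarked copies, all with AML1, AML1-ETO or N-CoR (the 8 nearest summits where over 15), all H1 genes and those next to the 1 kb limit. Other genes, named for a shared promoter, printed sequence, protein, stem-loop or the repeat, were chosen after their values were seen. Shares carry exact Clopper-Pearson 95% intervals, which cover the counting of genes or summits only. Repeats were 32-base words of the 1 kb windows found more than once in GRCh37. Alternatives changed the window, start, unit, members and lists. Counting was tested on simulated data. H3K27me3 and input were not analysed here. Python 3.11.15, samtools 1.23.1, matplotlib 3.10.9, pysam 0.24.0 and SciPy 1.17.1 were used.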

Additional observations from a re-analysis of the deposited data

How the results depend on the processing

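Of 211 values recomputed under alternatives, 189 stayed inside the interval or middle 50% of the reported value (counts within 1.5 times). N-CoR at histone genes ranged from 49.2 to 76.9% over 11 alternatives, with the lowest value in the first 50% of the list as deposited (32 of 65 genes, against 3.12% of all genes). In the first 50% of their lists AML1-ETO was at 1.54% (all genes 7.55%), p300 at 21.5% (19.7%) and H3K4me3 at 12.3% (44.3%), so that H3K4me3 turned from above to below the share of all genes. What orders the lists is not given, so the cause was not tested. H3K4me3 was at 56.9% within 500 bp (all genes 51.4%) and 12.3% within 250 bp (22.4%), so the interval no longer lay above the share of all genes in either, and 250 bp is a window that holds few of its summits (median +340 bp). Marked and unmarked copies depend on that window: within 250 bp, with 8 marked genes, AML1 was at 0% of them and N-CoR at 61.4% of the unmarked, and in the first 50% of the lists AML1-ETO was at 0% of the marked and N-CoR at 45.6% of the unmarked. Assigned to the nearest start only, N-CoR was at 66.0% of marked copies, as a shared summit then counts for 1 gene. AML1-ETO was at 0% of unmarked copies within 2000 bp and among genes with the stem-loop, since H4C13 leaves the group. Genes of the histone pathway had H3K4me3 at 82.4% within 500 bp. In the 100 bases before the start the octamer was at 12.3% (all genes 0.665%), AAACACA at 0% (1.10%), TGTGGT at 1.54% (3.48%), CCGGAA at 6.15% (12.2%), AGGAAG at 6.15% (1.70 to 15%, all genes 12.5%) and GAGGAA at 10.8% (9.75%). From 500 bp before to 100 bp after, AGGAAG was at 35.4% (52.4%) and GAGGAA at 49.2% (47.0%), as windows of another length hold other numbers of matches. The share of N-CoR genes without AML1 or AML1-ETO, whose alternatives were added after seeing the data, ranged from 61.7 to 81.2%. A stricter peak threshold was not run because the lists have no score. No replicate could be left out, since they were pooled. No paired analysis was possible because there is 1 pooled list for each antibody.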
